A study of Mus musculus with 12 samples.

Results

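The gene for the ethanol-oxidising enzyme Cyp2e1 and 9 genes of the fat cell (Adipoq, Retn, Cfd, Lep, Cidec, Lpl, Fabp4, Slc2a4 and Car3) were followed array by array in mouse forestomach, to ask whether the level of Cyp2e1 went with alcohol or with the amount of adipocyte RNA in a sample. They were taken as every probe whose gene name in the scanner files is one of these 10 symbols, which gave 15 of 41174 probes. All 10 genes were among the 20724 tested. They were chosen by measured values of the same data, the log2 ratios of Cyp2e1 and adipocyte genes that stood out on single arrays. Their pattern over arrays is therefore given as a description, with no test.

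Cyp2e1 is a cytochrome P450 of the endoplasmic reticulum that oxidises ethanol to acetaldehyde, and it is best known from the liver, where alcohol raises the amount of the protein. Fat cells also express it. Adipocytes store triglyceride in a large droplet coated by dedicated proteins, take up glucose under insulin through Slc2a4, and secrete hormones such as adiponectin, leptin and resistin. The forestomach is lined by keratinised squamous epithelium, and adipocytes lie in the connective tissue and fat on its outer side.

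Forestomachs of wild-type adult mice of the C57BL/6J strain were dissected whole and snap-frozen, in 3 groups of 4. Controls drank supersaccharin with 0% alcohol, the 4-week group drank 20% alcohol in supersaccharin for 4 weeks, and the 40-week group drank 15% alcohol for 40 weeks, with no saccharin mentioned. Each array carried forestomach RNA in the red dye Cy5 and a commercial mouse reference RNA pool in the green dye Cy3, with no dye swap. The labels do not tie each replicate to an animal of its own, so the spread behind each p-value is that between samples and may be technical. Below, control 1 means control replicate 1, and so on.

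Both channels were at hand for the 8 control and 4-week arrays. The 40-week samples had deposited log2 ratios only. In median, Cy5 signal above local background ranged from 112 to 151 scanner units in controls and from 42.4 to 112 at 4 weeks, and no Cy5 spot was saturated. All controls lay on 1 slide and all 4-week arrays on another, so slide and alcohol cannot be told apart. The mean deposited log2 ratio of 14 squamous epithelium genes was 2.73 to 5.56 over the 12 samples. Some arrays carried transcripts of neighbouring organs: the mean scanner log2 ratio of 12 pancreas genes was 6.55 in control 3 against at most 1.44 on the other 7 arrays, and that of 11 glandular stomach genes was highest in control 4 (4.80) and 4-week 2 (3.45), against at most 1.81 elsewhere. The Y-linked transcripts Ddx3y and Eif2s3y were at -4.26 and -5.67 in 40-week 3 and at -4.02 and -6.28 in 40-week 4, against 0.49 to 1.49 and 2.61 to 3.17 in the other 10 samples. The X-linked transcript Xist was at 0.63 in 40-week 3 and 0.11 in 40-week 4, against -2.25 to -0.82 in the other 10.

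The probes that carry the array-by-array pattern are 60 bases long. Those of Cyp2e1, of Adipoq and of both Retn probes are shown because the pattern rests on what these letters capture. The files place them on mouse build mm9, on the plus strand, at chr7:147959585-147959644 for Cyp2e1, chr16:23157576-23157635 for Adipoq, and chr8:3656145-3656966 and chr8:3656107-3656928 for Retn, whose probes cross an exon junction. Capitals mark the 22 bases that both Retn probes share, so these are not independent measurements of one another.
Cyp2e1 A_51_P283456: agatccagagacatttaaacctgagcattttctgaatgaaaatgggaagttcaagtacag
Adipoq A_51_P458451: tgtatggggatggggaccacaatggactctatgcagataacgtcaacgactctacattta
Retn A_51_P233597: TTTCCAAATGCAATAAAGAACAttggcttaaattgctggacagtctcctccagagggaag
Retn A_52_P55972: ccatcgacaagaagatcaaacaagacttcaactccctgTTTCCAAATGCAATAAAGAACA

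The Cyp2e1 probe is the only probe of that gene on the array, and 1 reading frame of it holds no stop codon. The longest run it shares with any of the 67 probes for other genes of the Cyp2 family is 8 bases. No probe of the other 9 genes shares a run of 20 bases with a probe of another gene.

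Cyp2e1 differed more between replicates than between groups. Its scanner log2 ratio of forestomach over reference was 0.82, 5.32, 5.98 and 5.82 in controls 1 to 4. In the 4-week group it was 4.27, 4.63, 0.34 and 4.65 in replicates 1 to 4. Control 1 and 4-week 3 were far below the other 6 arrays, which lay within 4.27 to 5.98, and the groups overlapped. Control 1 was lower than the mean of the other 3 controls by a log2 difference of -4.89, and 4-week 3 was lower than its other 3 arrays by a difference of -4.17. The difference between the 2 groups held 6.15% of the total sum of squares of Cyp2e1, against a median of 16.8% over all genes tested.

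The same arrays were low in the forestomach channel itself. Cyp2e1 gave a Cy5 signal above background of 55.2, 3020, 5175 and 6453 units in controls 1 to 4. The 4-week arrays gave 828, 6010, 14.6 and 917 units, and the value of 4-week 3 was not well above background. Cy5 was 29.0 times lower in control 1 than the mean of the other 3 controls, after quantile normalisation of the channel. The size of the drop in 4-week 3, ratio included, is not measured, since its signal lay near background. The reference channel, which held the same RNA pool on every array, was not constant at this probe: Cy3 was 14.7, 79.6, 95.8 and 172 units in controls and 54.2, 430, 8.58 and 93.7 units at 4 weeks. Cy3 was also lowest on both arrays that were lowest in Cy5, and it was not well above background there. The source of the Cy3 signal was not tested.

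**Figure D1:**
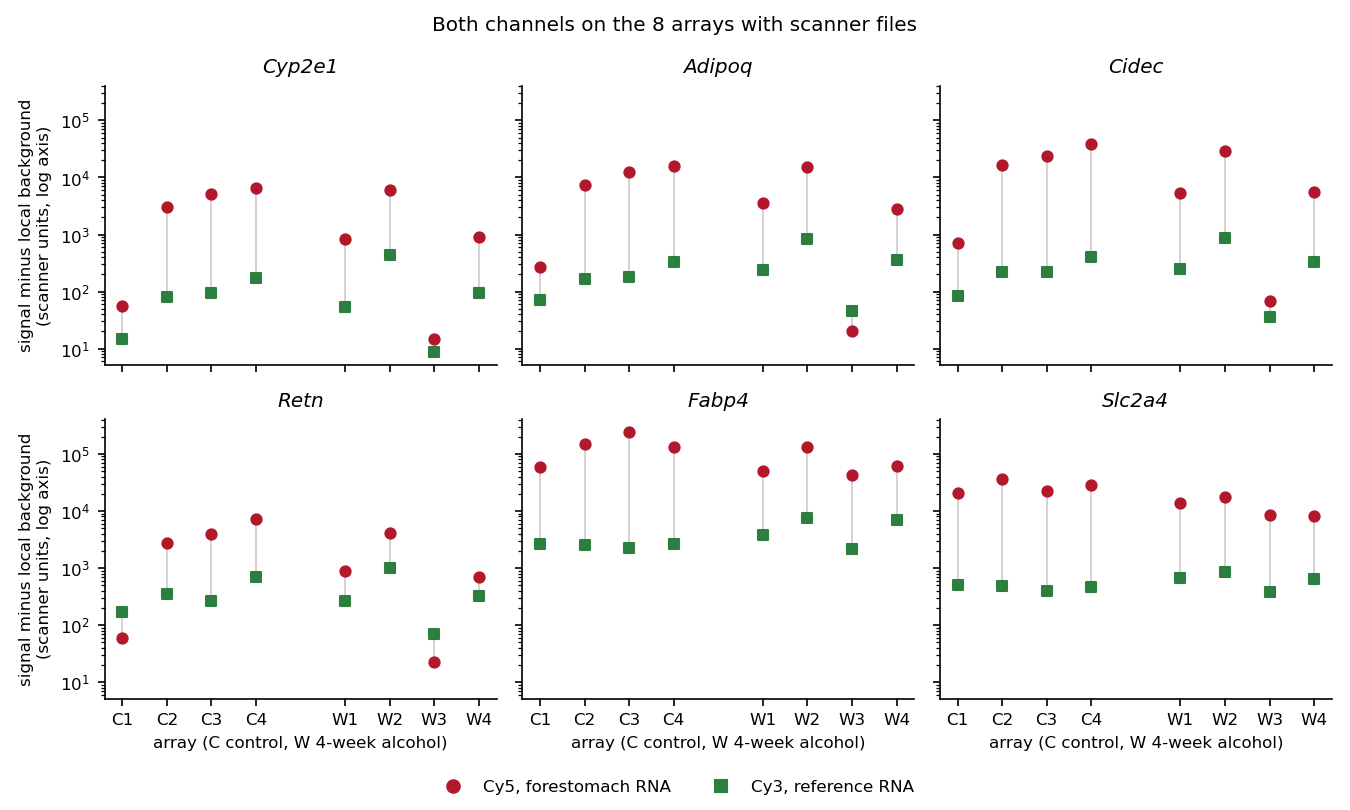
Signal above local background in scanner units (log axis) in Cy5, forestomach RNA (circles), and Cy3, reference RNA (squares), for 6 genes on the 4 control (C1 to C4) and 4 4-week (W1 to W4) arrays. Cyp2e1, Adipoq, Cidec and Retn drop in Cy5 on C1 and W3, whereas Fabp4 and Slc2a4 stay bright on all 8 arrays.

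Of the secreted products, adiponectin (Adipoq), a hormone made by fat cells, gave scanner log2 ratios of 2.01, 5.925, 6.57 and 6.34 in controls and 4.925, 4.98, 0.05 and 4.91 at 4 weeks. Resistin (Retn), another adipocyte hormone in mice, gave -0.10, 3.60, 4.50 and 4.28 in controls and 2.82, 2.945, -0.09 and 3.01 at 4 weeks. Both were lowest in control 1 and 4-week 3, and their groups overlapped. Cy5 of Adipoq was 268 units in control 1 and 20.6 units in 4-week 3, against 2831 to 15610 on the other 6 arrays. The second Retn probe was low on the same arrays, with 0.18 in control 1 and -0.17 in 4-week 3 against 3.48 to 5.07. Its Cy5 in 4-week 3 was 19.3 units and not well above background, so the size of that drop is not measured. Cy5 of the first Retn probe was 22.8 units in 4-week 3.

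Adipsin (Cfd), the complement factor D that adipocytes secrete, gave 5.35, 7.90, 8.13 and 7.66 in controls. At 4 weeks it gave 6.52, 5.35, 1.53 and 6.11. Control 1 was lowest of its group and 4-week 3 lowest of all, and the groups overlapped, since 4-week 1 and 4 were above control 1. In Cy5 the drop was larger than in the ratio, 27.6-fold in control 1 and 316-fold in 4-week 3, and Cy3 of Cfd was also low on these arrays, at 65.1 and 32.9 units against 562 to 4108 elsewhere. Leptin (Lep), the satiety hormone of fat, showed it less: it gave 0.24, 0.58, 0.95 and 0.71 in controls and 0.37, 1.20, 0.29 and 0.21 at 4 weeks. Its Cy5 was only 12.3 to 79.4 units and was not well above background in 4-week 4. On the deposited scale, to which no offset was added, Lep was lowest of its group in control 1 (0.87) and in 4-week 3 (0.95), by differences of -0.96 and -0.82 from the other 3 arrays.

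Of the genes of fat storage, Cidec, a protein of the lipid droplet that makes droplets fuse, gave 3.32, 6.73, 7.245 and 7.33 in controls and 5.475, 5.81, 1.09 and 5.97 at 4 weeks. Lipoprotein lipase (Lpl), which releases fatty acids from circulating lipoproteins and is also made in muscle and macrophages, gave -2.10, -0.40, -0.62 and 0.89 in controls and -0.95, 0.75, -2.32 and 0.295 at 4 weeks. Control 1 and 4-week 3 were again the lowest for both genes. Lpl is the member whose reference signal was steady, at 5453 to 9578 units of Cy3 on all 8 arrays, while its Cy5 was 670 units in control 1 and 554 in 4-week 3 against 1466 to 9402 elsewhere. The other Lpl probe was lowest on the same arrays, with -1.35 in control 1 and -1.22 in 4-week 3.

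Carbonic anhydrase 3 (Car3), an enzyme of carbon dioxide hydration that is abundant in fat and muscle, gave 3.44, 6.13, 6.08 and 5.69 in controls and 4.985, 4.61, -0.14 and 4.53 at 4 weeks. Its Cy5 was 1613 units in control 1 and 64.4 in 4-week 3 against 5839 to 52410 on the other 6 arrays. It was low on both arrays, more so in 4-week 3. The second Car3 probe was dim, and its Cy5 was not well above background on these 2 arrays.

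Fabp4 and Slc2a4 stood apart from the other members. Fabp4, the fatty acid-binding protein of adipocytes, which macrophages and endothelium also make, gave 5.76, 6.36, 6.95 and 6.31 in controls and 4.79, 4.59, 5.355 and 4.96 at 4 weeks. Slc2a4, the insulin-responsive glucose transporter of fat and muscle, gave 6.61, 6.74, 6.42 and 6.71 in controls and 5.51, 5.165, 5.55 and 5.65 at 4 weeks. In the ratio 4-week 3 was not low, and both genes had all 4-week arrays below all controls, as did 6.29% of all genes tested. In the forestomach channel 4-week 3 was the lowest 4-week array for both genes, by log2 differences of -0.86 for Fabp4 and -0.68 for Slc2a4 from the mean of the other 3 after quantile normalisation. Cy3 was lower there as well, by -1.35 and -0.79. The difference between groups held 79.8% of the sum of squares of Fabp4 and 93.0% of that of Slc2a4. The second Fabp4 probe also kept the groups apart, and on the third 4-week 4 (5.24) passed control 1 (5.17).

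**Figure D2:**
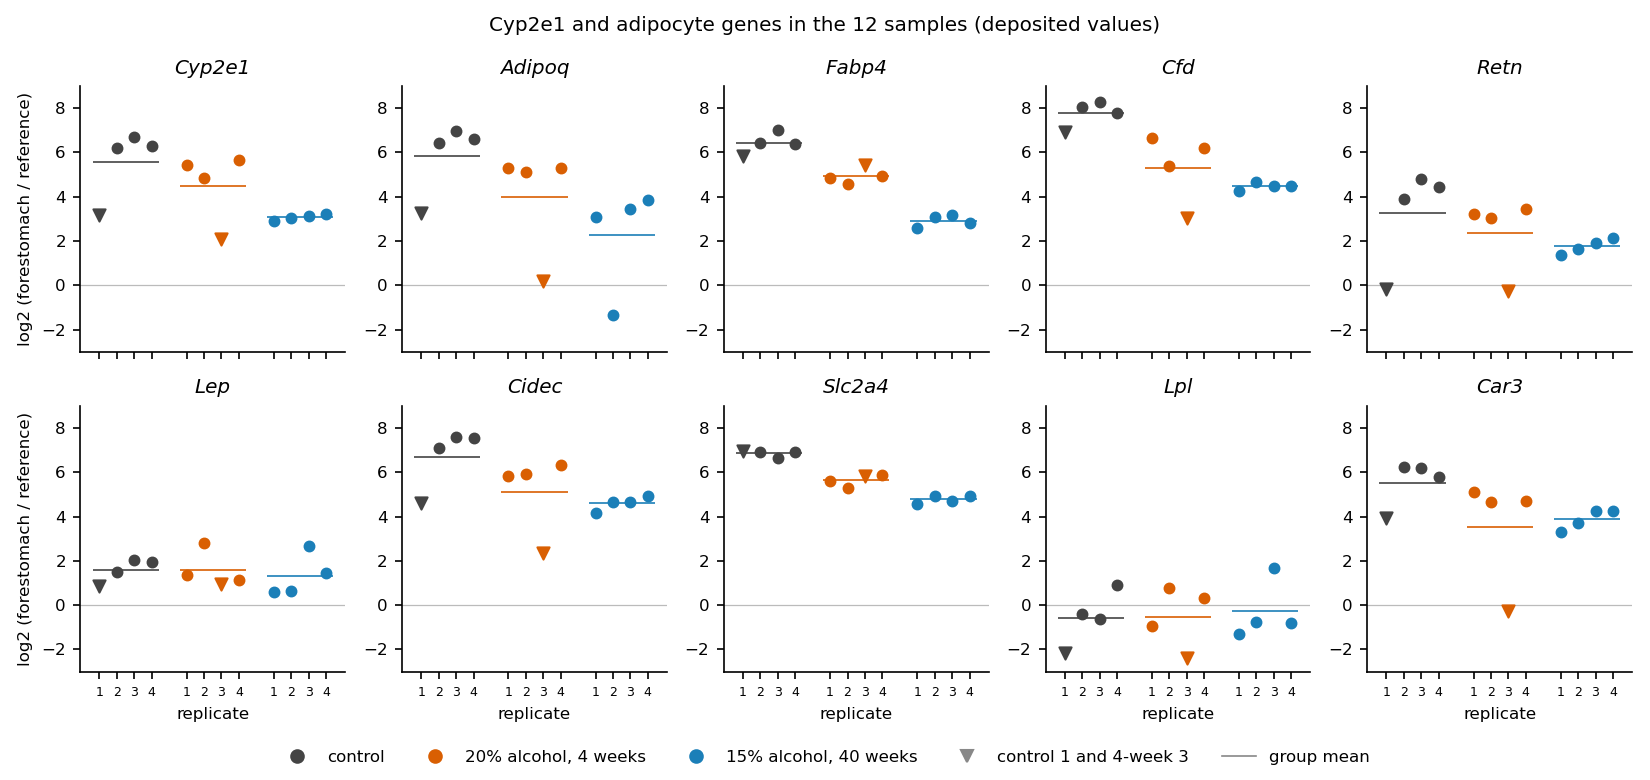
Deposited log2 ratio of forestomach over reference RNA for each gene in the 12 samples, by group and replicate number; lines are group means (n = 4) and triangles mark control 1 and 4-week 3. Cyp2e1 is at 3.18 in control 1, at 2.075 in 4-week 3 and at 2.89 to 3.21 in the 40-week group.

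The 40-week samples lacked the split by replicate. The deposited log2 ratio of Cyp2e1 was 2.89, 3.025, 3.15 and 3.21 in 40-week 1 to 4, an SD of 0.14 (n = 4). On the same deposited scale it was 3.18, 6.18, 6.68 and 6.31 in controls, with an SD of 1.62, and 5.42, 4.84, 2.075 and 5.65 at 4 weeks, with an SD of 1.65. As deposited, all 40-week samples lay near the low control and below the other 3 controls. These columns had a smaller spread over all probes, and scaling to 1 spread moves the mean difference of Cyp2e1 from control from -2.52 to -0.76. Cfd gave 4.28, 4.67, 4.50 and 4.485 at 40 weeks, Cidec 4.19, 4.66, 4.65 and 4.93, and Retn 1.35, 1.62, 1.92 and 2.15. Car3 gave 3.30, 3.73, 4.24 and 4.24, Fabp4 2.57, 3.09, 3.19 and 2.83, and Slc2a4 4.59, 4.93, 4.72 and 4.95. None of these had a sample that stood apart.

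Adipoq did have one at 40 weeks: it gave 3.096, -1.37, 3.46 and 3.87, and 40-week 2 was alone in its drop, since Cyp2e1, Cidec, Cfd and Retn were not low there. Lep gave 0.58, 0.62, 2.68 and 1.46, and Lpl -1.28, -0.745, 1.70 and -0.80. The highest value of both genes was in 40-week 3, one of the samples with low Y-linked transcripts. The role of that difference was not tested.

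Over the 10 genes, 7 (Cyp2e1, Adipoq, Retn, Cfd, Cidec, Lpl and Car3) were more than 1 log2 unit below the mean of the other 3 arrays of the group on both control 1 and 4-week 3. Over all genes tested the share was 0.825% (171 genes). The genes were chosen for this, so the count is no evidence of its own. The remaining 3 had differences of -0.78 and 0.57 (Fabp4), -0.02 and 0.11 (Slc2a4) and -0.50 and -0.31 (Lep) on control 1 and 4-week 3. In whole tissue, fewer fat cells and less RNA per fat cell cannot be told apart, and other sources of the low values were not tested.

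Of 31 other adipocyte genes tested, 11 were more than 1 log2 unit low in control 1, 5 in 4-week 3 and 4 on both (12.9%). Over all genes tested these shares were 3.19% in control 1, 1.47% in 4-week 3 and 0.825% on both. Those 4 were Plin1, the coat protein of the lipid droplet, with -4.02 and -4.06, Gpd1, an enzyme of glycerol phosphate synthesis, with -3.64 and -4.39, Thrsp, a regulator of lipogenesis, with -2.80 and -2.04, and Rbp4, the retinol carrier, with -2.79 and -2.07. These 4 were singled out after their values were seen. The 6 brightest of the list, Dgat2, Fasn, Cav1, Cidea, Acsl1 and Me1, were not more than 1 log2 unit low on either array, and each is also expressed outside fat. The list's median was -0.37 in control 1 and -0.42 in 4-week 3, beside -0.06 and -0.01 over all genes.

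Markers of other tissues moved in part with the same arrays. Of 14 liver genes, 6 were more than 1 log2 unit low on both control 1 and 4-week 3 (42.9%, against 0.825% of all genes tested), with medians of -1.96 and -0.97. Their mean scanner log2 ratio was 0.10, 0.82, 3.88 and 1.27 in controls and 1.64, 1.54, 0.24 and 0.33 at 4 weeks. The lowest 2 arrays by this mean were the 2 with low Cyp2e1, and 4-week 4, next at 0.33, had a Cyp2e1 ratio of 4.65. The list's median was lower in control 4 (0.49) than in control 2 (0.78). Albumin (Alb) was 0.19, 1.80, 4.95 and 0.85 in controls and 3.30, 1.88, 0.67 and 1.01 at 4 weeks. The part of liver transcripts in the Cyp2e1 values was not tested.

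Of the remaining lists, glandular stomach had 3 of 11 genes low on both arrays, pancreas 2 of 12, brown adipocyte 1 of 10 and mesothelium 1 of 11. The share over all genes tested was 0.825%. Squamous epithelium (14 genes), smooth muscle (11), striated muscle (10), endothelium (11), macrophage (11) and lymphocyte (12) genes had 0 on both. The medians of these 6 lists lay between -0.36 and 0.42. The median of the other adipocyte list (-0.37 and -0.42) was close in size to the farthest of these. Those were macrophage genes in control 1 (-0.36) and smooth muscle genes in 4-week 3 (0.42). Median differences of liver genes and of glandular stomach genes (-1.15 and -1.26) were lower on both arrays. The glandular differences were taken from means that include control 4 (list median 4.99) or 4-week 2 (3.78). Of the 11 glandular genes, 0 were lowest of their group on both arrays. Their median scanner log2 ratio was 1.03 in control 1 and 0.30 in 4-week 3, against 0.02 in control 2 and 0.11 in 4-week 4.

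**Figure D3:**
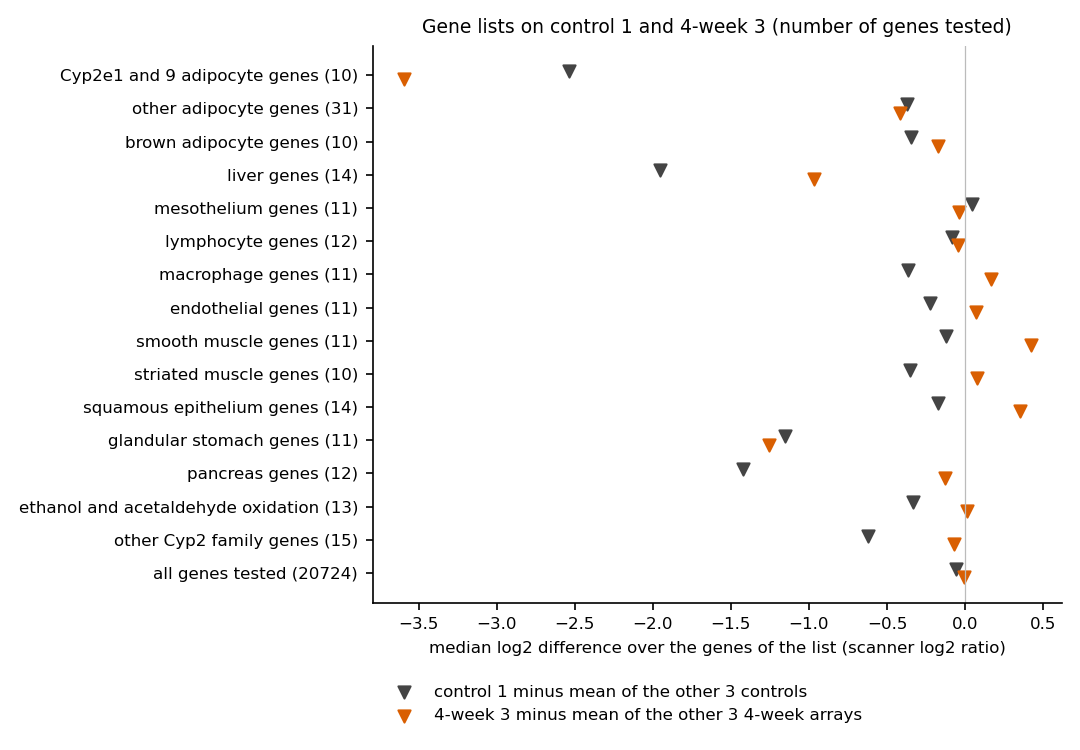
Median log2 difference of each gene list on control 1 (grey) and 4-week 3 (orange) from the mean of the other 3 arrays of the same group, with the number of genes tested in brackets. The 10 genes were chosen for this pattern and have medians of -2.54 and -3.59, and liver genes have -1.96 and -0.97.

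None of 13 other genes of ethanol and acetaldehyde oxidation was more than 1 log2 unit low on control 1 or on 4-week 3, with list medians of -0.33 and 0.01. Among them, the brightest were Por, the electron donor of cytochrome P450s, Aldh1a1, Cyb5a and Adh5. Of 15 other Cyp2 genes, 2 were low on both arrays (13.3%), beside 12.9% of the other adipocyte list and 0.825% of all genes tested.

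The genes most like Cyp2e1 were ranked by Pearson correlation among 17420 named genes, as a description without a test. Over the 12 deposited columns, 9 of the 10 highest were Cidec (r = 0.957), Thrsp (0.946), Cdo1 (0.941), Retn (0.929), Nat8l (0.918), Upb1 (0.915), Sln (0.9105), Pon1 (0.908) and Plin1 (0.907). Cdo1 is a cysteine dioxygenase that fat and liver express, and Plin1, Cidec and Retn are known from adipocytes. Of the 10 highest, 2 were among the 9 other members and 2 among the 31 other adipocyte genes. Cdo1, Nat8l, Upb1, Sln and Pon1 were in neither list, and the cells that their signal came from were not tested. The median r over all genes was 0.125. The 12 points share the group differences and the 2 low arrays.

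With group means removed, over the 8 scanner arrays, the highest were Cdo1 (0.995), Scg2 (0.994), Retn (0.994), Adipoq (0.988), Cidec (0.983), Plin1 (0.982), Thrsp (0.981), Mrap (0.981), 1700018A04Rik (0.973) and Cav2 (0.9705). Without control 1 and 4-week 3, r to Cyp2e1 over the other 6 arrays, with groups kept, was 0.991 for Cidec, 0.989 for Retn, 0.981 for Adipoq and 0.952 for Cdo1. The 95th percentile of all genes was 0.841. With groups kept, r also holds the difference between the 2 groups. Cidec, Retn and Adipoq were chosen from these data, so their place above the percentile is no test. The other 6 of these genes lay under 0.841 there: Thrsp 0.825, Plin1 0.786, Mrap 0.586, Cav2 -0.019, 1700018A04Rik -0.548 and Scg2 -0.852. These values and the ranking differ in the removal of group means as well as in the arrays used. The part of the 2 low arrays in the ranking therefore cannot be read from them. Fabp4 and Slc2a4 had 0.945 and 0.8435 over these 6 arrays, and 0.214 and -0.16 over the 8 with group means removed.

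**Figure D4:**
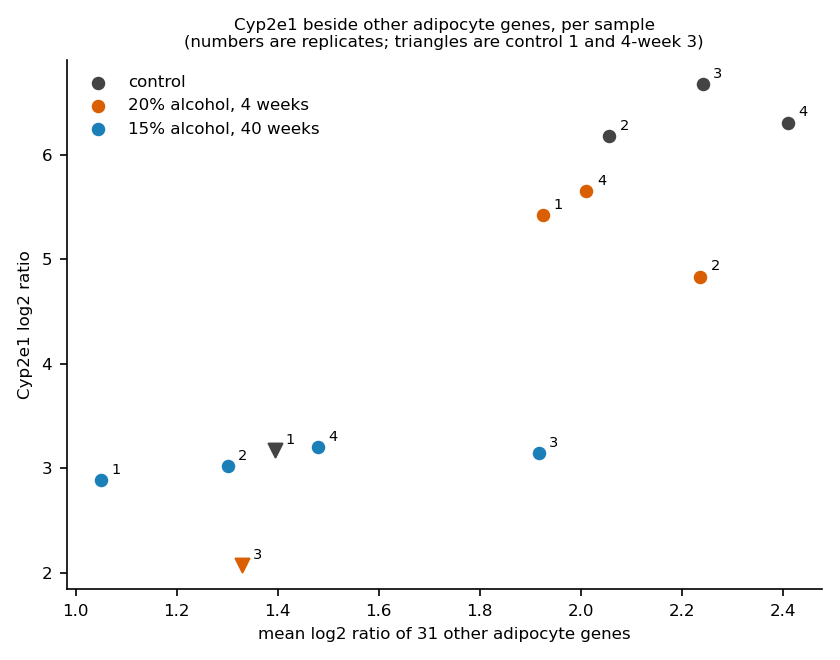
Deposited log2 ratio of Cyp2e1 against the mean deposited log2 ratio of 31 other adipocyte genes in the 12 samples, coloured by group and numbered by replicate; triangles are control 1 and 4-week 3. These 2 samples and the 40-week samples lie at Cyp2e1 ratios of 2.075 to 3.21, and the other 6 lie at 4.84 to 6.68. The adipocyte mean is 1.39 in control 1, 1.33 in 4-week 3, 1.05 to 1.92 at 40 weeks and 1.93 to 2.41 in the other 6. 40-week 3 (1.92) is close to 4-week 1 (1.93) in this mean, with Cyp2e1 at 3.15 against 5.42.

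Set against groups, 4 weeks of 20% alcohol gave no call for Cyp2e1: its log2 difference from control was -1.01 ± 1.33 (SE, n = 4 and 4; limma with Benjamini-Hochberg adjustment over all genes, adjusted p = 0.737). In Cy5 alone it was -0.52 (limma adjusted p = 0.893). Of the 10 genes, 2 passed, both lower, against 1.07% of all genes in either direction and 0.806% lower. Slc2a4 fell by 1.15 ± 0.14 (adjusted p = 0.0349) and Fabp4 by 1.42 ± 0.26 (adjusted p = 0.0437). For the other 7, limma adjusted p was 0.291 to 0.999 on scanner ratios, with differences of -2.39 ± 1.08 for Cfd, -1.84 ± 1.13 for Car3, -1.57 ± 1.25 for Cidec, -1.49 ± 1.34 for Adipoq, -0.90 ± 1.08 for Retn, -0.10 ± 0.24 for Lep and 0.00 ± 0.76 for Lpl.

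Fitted on the deposited table with all 12 columns, Cfd was called as well, at -2.46 (limma adjusted p = 0.0395), but not on its 8 control and 4-week columns alone (limma adjusted p = 0.142).

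Both scanner calls came with higher signal in the reference channel. In Cy5 alone Fabp4 had -0.20 and Slc2a4 -0.42 (limma adjusted p = 0.806 and 0.423), and in Cy3 alone 1.14 and 0.61 (limma adjusted p = 0.0671 and 0.0614). In each single channel 0 of the 10 genes were called by limma, where 0.328% of all genes were in Cy5 and 8.72% in Cy3; 0 and 2 of the 10 had an unadjusted p under 0.05. Cy3 of Fabp4 was 2248 to 2651 units in controls and 3797, 7639, 2153 and 6938 at 4 weeks, although the reference RNA was the same. With any 1 array left out, Fabp4 was called in 0 of 8 fits and Slc2a4 in 2 of 8. Fitted probe by probe, the Fabp4 probes had differences of -1.42, -1.34 and -1.11 (limma adjusted p = 0.0493, 0.0475 and 0.124). Scaling the arrays to 1 spread ended both calls, at -0.80 for Fabp4 and -0.53 for Slc2a4 (limma adjusted p = 0.36 and 0.665). In that setting 0 of all genes tested were called.

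The other adipocyte list had 0 of 31 genes called at 4 weeks, against 1.07% of all genes. Of the 31, 21 were lower, with a median of -0.15 against -0.02 over all genes. An unadjusted limma p under 0.05 was found for 4 of the 31, and for 3715 of all 20724 genes tested. Of 13 other genes of ethanol and acetaldehyde oxidation 0 were called (2 at an unadjusted p under 0.05), with a median of 0.23, and of 15 other Cyp2 genes 1 was, Cyp2f2, a lung and airway cytochrome, which fell by 1.37 ± 0.23 (limma adjusted p = 0.0387). Its Cy5 difference was 0.49 and its Cy3 difference 1.65. The 14 squamous epithelium genes had 5 called lower, with a median ratio difference of -1.06 beside 0.12 for Cy5 and 1.33 for Cy3.

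With control 1 and 4-week 3 left out, the difference of Cyp2e1 at 4 weeks was -1.19 ± 0.21 (limma adjusted p = 0.105), and 0 of all genes tested were called by limma (2441 had an unadjusted p under 0.05). These arrays were left out for their values of these very genes, so the smaller error follows from that choice. In Cy5 alone without them it was -0.56 ± 0.60 (limma adjusted p = 0.813). With the mean of the 31 other adipocyte genes as a covariate, the difference was -0.14. Cyp2e1 and the members were chosen for dropping together on the same arrays, so this value is a description with no test.

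**Figure D5:**
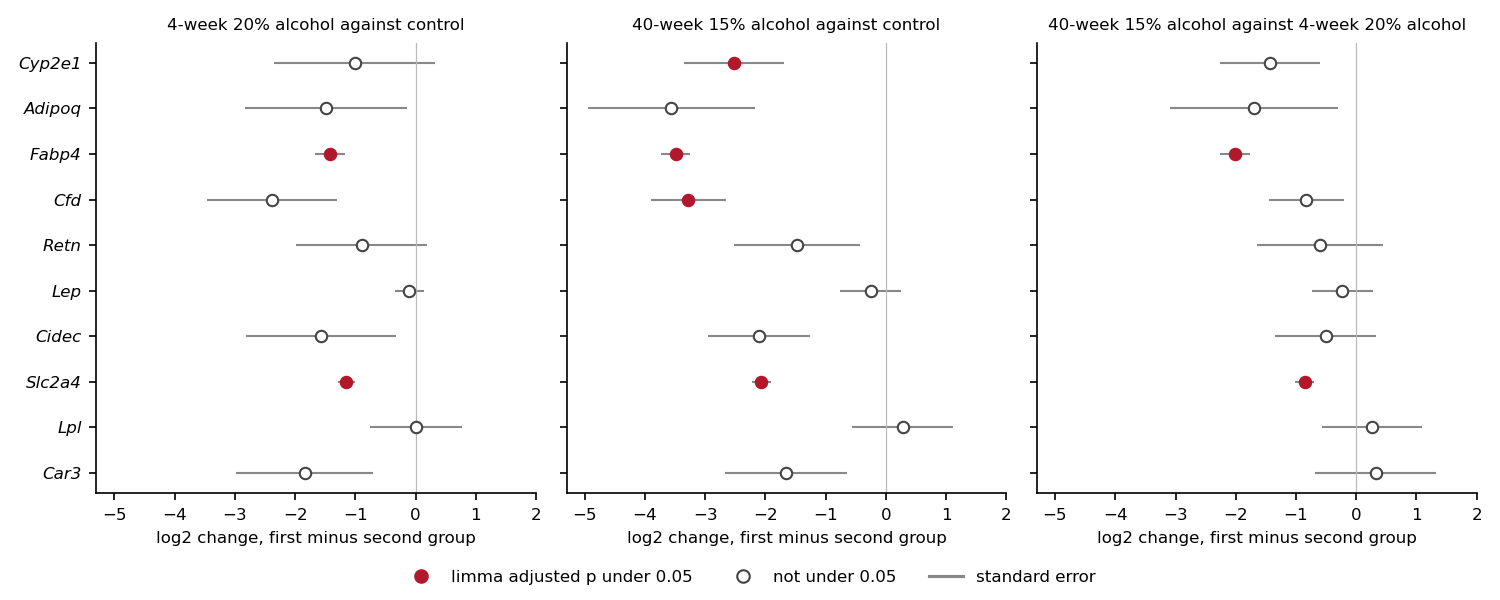
Log2 difference of the 10 genes in each comparison (points; bars are standard errors from limma, n = 4 per group), filled where the limma adjusted p is under 0.05. Fabp4 and Slc2a4 are filled in all 3 panels, and Cyp2e1 and Cfd only for 40 weeks against control; scaling the columns to 1 spread ends both 4-week calls, the Cyp2e1, Cfd and Slc2a4 calls of 40 weeks against control and the Fabp4 call of 40 against 4 weeks, and reverses Slc2a4 in both 40-week panels.

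After 40 weeks of 15% alcohol, Cyp2e1 was lower than in control by 2.52 on the log2 scale, a difference of -2.52 ± 0.83 (limma adjusted p = 0.0287). In this comparison alcohol cannot be told apart from the drink's saccharin, and weeks on the drink are not listed for controls. Low Y-linked transcripts were seen in 40-week 3 and 4 and in no control. Of the 10 genes 4 were called, all lower, where 42.5% of all genes were called in either direction and 23.9% lower. Fabp4 fell by 3.49 ± 0.25 (adjusted p = 1.74e-06), Cfd by 3.28 ± 0.62 (adjusted p = 0.00144) and Slc2a4 by 2.06 ± 0.15 (adjusted p = 2.05e-06, limma for each). Groups did not overlap for these 3 genes, where 23.9% of all genes had a 40-week group wholly below control, and Cyp2e1 overlapped through control 1. Adipoq had -3.56 ± 1.39, Cidec -2.11 ± 0.84, Car3 -1.66 ± 1.01, Retn -1.48 ± 1.04, Lep -0.25 ± 0.51 and Lpl 0.28 ± 0.83, with limma adjusted p of 0.0577 to 0.809.

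The deposited 40-week columns had a smaller spread, with an SD of 1.02 to 1.08 over probes against 1.48 to 1.73 in the other 8 columns. How those columns were made could not be checked, since their scanner files were not analysed here. Scaled to 1 spread, Cyp2e1 had -0.76 ± 0.73 (limma adjusted p = 0.433), Slc2a4 0.40 and Cidec 0.31, and 1 of the 10 genes, Fabp4, was called, at -1.67 (limma adjusted p = 0.000556). Of all 20724 genes tested, 3871 were called lower and 4050 higher when scaled. The Cyp2e1 call was also lost without any 1 of controls 2, 3 and 4 or any 1 of the 40-week samples, with limma adjusted p of 0.00263 to 0.0789 over the 12 fits that leave out 1 sample. With the adipocyte mean as a covariate it was -0.96, again as a description. Without control 1 and 4-week 3 it was -3.32 ± 0.20 (limma adjusted p = 7.43e-06), with 8 of the 10 genes called. Scaled to 1 spread without them it was -1.44 ± 0.24 (limma adjusted p = 0.00166), with 3 called. Control 1 and 4-week 3 were left out for their values of these very genes, so the smaller errors follow from that choice. The calls without them are no evidence of their own.

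Of 31 other adipocyte genes, 10 were called lower and 3 higher after 40 weeks (18.6% of all genes were called higher), of 13 genes of ethanol and acetaldehyde oxidation 7 lower and 1 higher, and of 15 other Cyp2 genes 8 lower and 1 higher. The brightest Cyp2 genes had -1.54 ± 0.18 (Cyp2s1), -2.30 ± 0.21 (Cyp2f2), -1.23 ± 0.29 (Cyp2j6) and -1.65 ± 0.34 (Cyp2b9). Among lists of other tissues, 13 of 14 squamous epithelium genes and 11 of 11 smooth muscle genes were called lower. Scaled to 1 spread, the squamous list had 8 called lower and 2 higher and the smooth muscle list 3 and 1, with a median of -0.23 against -1.78 unscaled. In the same setting the adipocyte list had 3 called lower and 6 higher and its median turned from -0.54 to 0.20, the oxidation list had 3 and 3, and the Cyp2 list had 3 and 0 with a median of -0.43 against -1.29 unscaled. Over all 20724 genes tested, that setting had 3871 called lower and 4050 higher.

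Between the 2 alcohol groups, Cyp2e1 was not called: 40 weeks minus 4 weeks was -1.43 ± 0.83 (limma adjusted p = 0.188), and the groups overlapped through 4-week 3. Of the 10 genes 2 were called, both lower, where 41.5% of all genes were called, 23.2% lower and 18.3% higher. Fabp4 fell by 2.02 ± 0.25 (limma adjusted p = 0.000118) and Slc2a4 by 0.86 ± 0.15 (limma adjusted p = 0.00114), with no overlap of groups, as in 25.3% of all genes with 40 weeks lower. Scaled to 1 spread, Fabp4 was no longer called, at -0.34 (limma adjusted p = 0.313), Slc2a4 turned to 1.53 (limma adjusted p = 0.000915) and Cyp2e1 to 0.20. Without 4-week 3 the Cyp2e1 difference was called, at -2.24 (limma adjusted p = 0.0258), but that array stood out for its low Cyp2e1, so this call is no evidence of its own. Each alcohol group was set against the same controls, so the 2 differences from control are not independent, and dose, duration and the drink's saccharin cannot be told apart between the alcohol groups.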

How the data were processed

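RNA of 12 forestomach samples was measured on Agilent 2-colour arrays. The deposited scanner files of the 8 control and 4-week arrays give the brightness of each spot and its surroundings as linear intensity, and flags (other values, 0 or 1), from Feature Extraction 10.7.3.1 per the file headers; the submitters' processing notes name version 9.1. The table deposited by the authors holds log2 ratios of Cy5 over Cy3 for all 12 samples. On the 8 arrays it matched the background-subtracted log2 ratio minus an intensity curve within 0.05 for 99.997% to 100% of probes above background in both channels, and all others held exactly 0; the making of the 40-week columns was not checked. Its column medians were 0.00 to 0.07.

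Signals were corrected with normexp (offset 50) and loess within arrays. Probes with Cy5 well above background on 3 or more of the 4 arrays in either group were kept, which left 30455 probes; the brightest stood for its gene, as for Fabp4, Retn, Lpl and Car3. The 40-week samples had no part in this filter. Of the 41174 probes, 26918 were named by accession, 5082 by symbol, 817 by synonym and 1440 by the files alone, and 6917 had no name. Single channels were quantile-normalised.

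Groups were compared with limma 3.58.1 (lmFit, eBayes; R 4.3.3): control and 4-week arrays on scanner ratios, the 40-week comparisons on the table with 3 groups in 1 fit. Genes were called at a Benjamini-Hochberg adjusted p under 0.05 over 20724 genes. The fit was tested on simulated data. The number of arrays limits the precision. The genes and lists were chosen with earlier results of these data known. Besides the 10 genes, the text names the 6 brightest other adipocyte genes, at most 4 brightest of other lists, and the 10 genes most like Cyp2e1 by each correlation, of which 1 is not reported here; other names are marked.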

Additional observations from a re-analysis of the deposited data

Results flagged for a closer look

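In 30 gene-by-group sets of 4 samples, 12 values stood apart from the other 3 by a share of the group's range above the 95% critical value of Dixon's test, where chance marks about 1 in 20 sets. The genes were chosen for such arrays, so these values describe the choice. Most lay in the same 2 arrays. Control 1 was lowest in scanner log2 ratio for Cyp2e1 (0.82), Adipoq (2.007), Cidec (3.319), Cfd (5.354) and Car3 (3.442), and 4-week 3 for Cyp2e1 (0.343), Adipoq (0.05), Cidec (1.086), Retn (-0.089) and Car3 (-0.138). Lep was highest in 4-week 2, at 1.2 against at most 0.37 in its group. Adipoq was lowest in 40-week 2, at a deposited log2 ratio of -1.366 against 3.096 to 3.87, while Cidec was 4.66 in that sample. No explanation of these values was tested.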

How the results depend on the processing

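At 4 weeks, the 2 calls among the 10 genes became 1 with a normexp offset of 16, on the 8 deposited columns of these groups, with no filter and with the adipocyte covariate. They became 3 with all 12 deposited columns in 1 fit, a setting chosen after seeing the data, and 0 with median centring, scaling to 1 spread, Cy5 alone, Cy3 alone, both low arrays left out (also in Cy5 alone, a setting chosen after seeing the data), and control 3, control 4 and 4-week 2 left out. In that last setting the log2 difference (the quantity given for each gene here) was 0.0183 for Cyp2e1 and 0.16 for Retn. In Cy3 alone the signs turned to 0.27 (Cyp2e1), 0.61 (Slc2a4), 0.45 (Cidec), 0.71 (Adipoq), 1.00 (Cfd), 0.0791 (Retn), 0.32 (Car3), 1.14 (Fabp4) and -0.14 (Lpl). Lpl, near 0, also turned with no background correction (-0.0059), processed signals (-0.0067), scaling (-0.0062), median centring (-0.21), Cy5 alone (-0.12, and -0.14 without the low arrays) and array weights (-0.56), and Lep with median centring (0.11) and the covariate (0.0101). In Cy5, Fabp4 of 4-week 3 turned to -0.86. A filter for signal on all 8 arrays removed Cyp2e1.

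For 40 weeks against control, scaling and quantile normalisation each left 1 of 4 calls. Of all 20724 genes tested, scaling gave 3871 called lower and 4050 higher, and quantile normalisation 4265 and 3607. With scaling and with quantile normalisation, Cyp2e1 was -0.76 and -0.635, Lep 0.44 and 0.26, Slc2a4 0.40 and 0.45, Cidec 0.31 and 0.35, and Car3 0.36 and 0.52. Fitting only the 2 groups gave 7 calls. The covariate gave -0.96 for Cyp2e1, 0.74 for Lep, 0.60 for Retn and 0.14 for Car3. Without the low arrays there were 8 calls and Lpl was -0.26; scaled as well, a setting chosen after seeing the data, Lep was 0.24, Slc2a4 0.47 and Lpl -0.31. Without 40-week 3 and 4, Cyp2e1 was -2.63 (limma adjusted p = 0.114) and Lpl -0.45.

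For 40 against 4 weeks, scaling left 1 call, higher (Slc2a4, 1.53), with Cyp2e1 at 0.20, Lep 0.47, Cidec 1.72, Cfd 1.38 and Retn 0.29. Of all 20724 genes tested, 3922 were called lower and 4529 higher with scaling. Quantile normalisation gave Slc2a4 0.81, Lep 0.29, Cidec 1.12, Cfd 0.75 and Retn 0.0114. Array weights gave Lep 0.028, and the covariate Lep 0.51, Cidec 0.72, Adipoq 0.0319 and Retn 0.95. Without the low arrays there were 8 calls, with Cyp2e1 -2.24, Lpl -0.35 and Car3 -0.95. The low arrays were left out for their values of these genes, so the calls without them are no evidence of their own in either 40-week comparison. Without 40-week 3 and 4, Lpl was -0.47 and Car3 -0.0408.

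With 1 sample left out, calls among the 10 genes were 0 to 1 at 4 weeks, 3 to 7 for 40 weeks against control (7 without control 1 or 4-week 3) and 2 to 4 for 40 against 4 weeks (4 without 4-week 3). Cyp2e1 was -2.23 to 0.03, -3.32 to -2.16 and -2.24 to -1.04. Lep was -0.33 to 0.0049 and -0.68 to 0.19 in the first and last comparison, Lpl -0.51 to 0.59, -0.38 to 0.78 and -0.40 to 0.70, and Car3 -0.95 to 0.85 in the last.

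Replicate numbers did not pair the samples: deviations of same-numbered control and 4-week arrays correlated at -0.48 to 0.32, with 2 of 4 pairs over 0.1. With the replicate number as a block, 0 of the 10 genes and 0 of all genes were called by limma at 4 weeks (2 and 3786 at an unadjusted p under 0.05), and Cyp2e1 was -1.01 ± 1.37 (limma adjusted p = 0.734); in the 40-week comparisons the counts stayed at 4 and 2. The cause of these changes was not tested, and the number of arrays limits what could be called.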
